A study of Mus musculus with 16 samples.

Results

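The genotype by DSS interaction asks whether colonic epithelial cells that lack Rictor respond to dextran sulfate sodium (DSS) differently from control cells. It was computed for each gene as (cKO_DSS minus cKO) minus (WT_DSS minus WT) on log2(FPKM + 1), where FPKM is a read count scaled to gene length and library size. It used 16 of the series' 16 RNA sequencing libraries, 4 in each of 4 groups. Of 56268 genes in the deposited table, 13255 had at least 1 FPKM in at least 4 libraries and were tested. A positive value means that the change with DSS was more positive in cKO than in WT, and a negative value that it was more negative.

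All libraries came from mouse colon, from cells described as colonic epithelial cells. WT are control mice with the genotype Villin-Cre, and cKO are mice with the genotype Rictor Flox; Villin-Cre. The groups WT and cKO had normal water, and WT_DSS and cKO_DSS had 3% DSS in the drinking water. Mice of every group thus carried Villin-Cre, a transgene that drives Cre recombinase from the villin promoter in the intestinal epithelium, and other colon cells of cKO mice are expected to keep Rictor. The sources used here give no age, sex or duration of DSS, and do not say whether the 4 libraries of a group came from separate animals. Each p-value therefore reflects the spread among the libraries at hand, and how much of it is technical is not known. Of the pairs of libraries within a group, 0 agreed within counting noise. Sex-linked reads also differed among the libraries of WT, of cKO and of WT_DSS.

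Rictor is the scaffold that sets mTORC2 apart from the other mTOR complex. Downstream of growth factors, mTORC2 activates kinases of the AKT, SGK and PKC families and so acts on glucose uptake, lipid synthesis, the actin cytoskeleton and cell survival. DSS is a sulfated polysaccharide that damages the colonic epithelium and lets bacteria reach the tissue beneath. The epithelium then shows interferon responses, loses differentiated functions and rebuilds itself from crypt cells and from cells with a fetal-like repair programme.

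The libraries held 13911823 to 16414914 reads, with 19969 to 22738 genes above 0. Epithelial markers were abundant in all 16, with Epcam at 639 to 866 FPKM and Krt8 at 2549 to 3508 FPKM, while Muc2 stayed at 1.41 to 8.96 FPKM. The libraries cKO_DSS 3 and cKO_DSS 4 stood apart from cKO_DSS 1 and 2 on the second principal component, at -33.9 and -32.2 against 2.39 and -17.1. The Spearman rho between a library's deviation from the gene means and GC content was 0.399 and 0.388 in cKO_DSS 3 and 4 but -0.255 and -0.375 in cKO_DSS 1 and 2. Sex-linked RNA moved with treatment: reads from Xist numbered 10022 to 25600 in every library on water, 0 to 7 in 7 libraries after DSS and 5275 in WT_DSS 2. Y-linked reads numbered 2681 to 4533 after DSS and 0 to 1856 on water, with 0 in WT 3, cKO 3 and cKO 4. WT 1, WT 2, WT 4, cKO 1, cKO 2 and WT_DSS 2 held at least 635 Y-linked reads beside at least 5275 Xist reads. Whether these libraries mix animals of both sexes was not tested. Because sex-linked RNA moved with treatment, each change with DSS cannot be told apart from a difference in it. In the interaction 0 of 5 sex-linked genes (Xist among them) had an unadjusted p under 0.05, with a median of 0.33. Their reads varied widely among libraries on water, so this does not show the interaction to be free of such a difference. With the Y-linked level as a covariate, 6 of the 20 genes called for the interaction stayed called. The others had an adjusted p of 0.0525 (limma), and 20 of 20 kept their sign.

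Rictor itself (chr15:6708379-6800401, plus strand, mm10) did not separate the genotypes at the level of the whole gene. Values per library are listed from replicate 1 to 4. Rictor was at 3.14, 3.08, 2.8 and 2.17 FPKM in WT, 2.75, 2.33, 2.57 and 2.22 in cKO, 3.85, 3.69, 2.82 and 4.16 in WT_DSS, and 2.96, 2.78, 1.92 and 2.36 in cKO_DSS. The ranges of WT and cKO overlapped, and so did those of WT_DSS and cKO_DSS. The difference between the genotypes was -0.13 on water (adjusted p = 0.582, limma) and -0.40 after DSS (adjusted p = 0.0761, limma), and the interaction was -0.28 ± 0.17 (SE; adjusted p = 0.329, limma), or -0.05 after GC correction (removal of each library's trend with the GC content of transcripts) and -0.12 without cKO_DSS 3 and 4. The sources used here do not say which exon is floxed, and a value over the whole gene counts reads outside the deleted part, so it checks the labels weakly.

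None of the 11 genes of the mTOR complexes was called for the interaction by limma. At an unadjusted p under 0.05 there was 1 with a positive value and 1 with a negative value, while 11.8% of all genes were positive and 11.4% negative. Akt1s1, which encodes the mTOR complex 1 inhibitor PRAS40, had an interaction of 0.89 ± 0.27 (SE), with DSS changes of -0.86 in WT and 0.03 in cKO, and its interaction was 0.45 after GC correction and 0.52 without cKO_DSS 3 and 4. Deptor, an inhibitor of both mTOR complexes, had -0.68 ± 0.21 (SE), with 0.53 in WT and -0.14 in cKO. The median over the 11 genes was 0.08, and it turned to -0.05 after correction for GC content and to -0.05 without cKO_DSS 3 and 4. Among 18 kinases and inputs of the AKT, SGK and PKC branch, 3 had a positive and 2 a negative interaction at an unadjusted p under 0.05. Over all genes the share in either direction was 23.2%. After GC correction the counts were 2 and 0, with 14.3% of all genes. Without cKO_DSS 3 and 4 they were 1 and 1, with 9.72% of all genes. Pik3ca, the catalytic subunit of PI3-kinase, rose with DSS in WT (0.51, adjusted p = 0.00288, limma) and had a change of 0.08 in cKO.

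Across the 13255 genes, 20 (0.151%) were called for the interaction at an adjusted p under 0.05 (limma, Benjamini-Hochberg), 6 positive (0.0453%) and 14 negative (0.106%). At an unadjusted p under 0.05 there were 3074 genes (23.2%), 1561 positive (11.8%) and 1513 negative (11.4%). The 14 negative genes had a median DSS change of 0.44 in WT and -0.61 in cKO, and the 6 positive genes had -0.52 in WT and 0.37 in cKO. With DSS, 3778 genes changed in WT (28.5%) and 1950 in cKO (14.7%), and the genotypes differed in 491 genes after DSS (3.7%) and in 12 on water (0.0905%). Of all genes, 15% rose and 13.5% fell with DSS in WT, and 8.07% rose and 6.64% fell in cKO. In cKO, 0.0528% were higher and 0.0377% lower than in WT on water, and 2.03% higher and 1.67% lower after DSS. These comparisons share libraries with the interaction and are given to show its shape.

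The balance of directions depended on scaling: 19 positive and 17 negative genes were called when libraries were set to a common median, 2 and 9 after quantile normalization, and 38 and 31 with limma voom on reads recovered from the FPKM. Without cKO_DSS 3 and 4, limma called 0 genes, with 1288 (9.72%) at an unadjusted p under 0.05, and the 20 genes kept their sign, with adjusted p from 0.0632 for Hoxd13 to 0.241. After correction of each library for GC content, 9 genes were called, 7 of them among the 20: Hk2, Hoxd13, Pcbd2, Ext1, the antisense gene Gm15564 and the pseudogenes Gm10036 and Rps15-ps3.

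**Figure D1:**
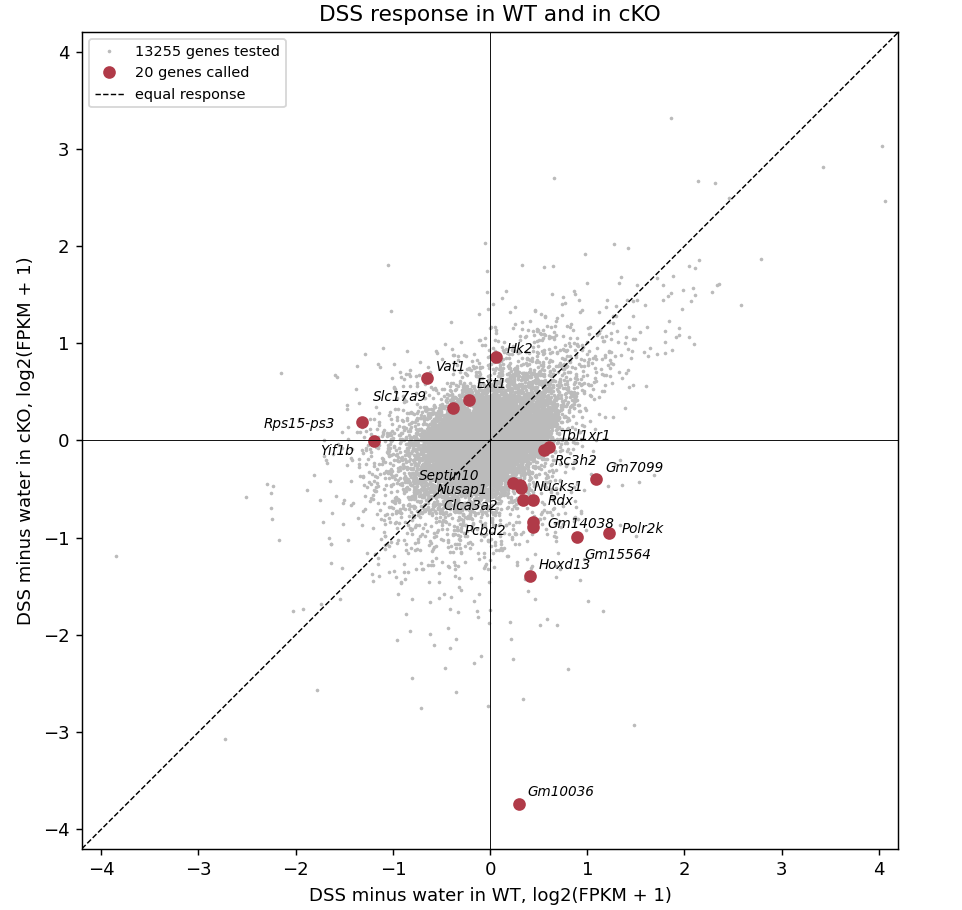
Change with DSS in cKO (vertical axis) against change with DSS in WT (horizontal axis), as differences of mean log2(FPKM + 1), for the 13255 genes tested (grey) and the 20 called for the interaction (red); the dashed line marks equal responses, and 2 genes lie outside the axes. The 14 negative genes lie to the lower right, with a positive change in WT and a negative one in cKO, and Hk2 and Vat1 lie to the upper side of the line.

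The shapes over the 4 group means were sorted with a limit of 0.3 on the log2 change in each genotype. A response was called reversed when both genotypes passed the limit with opposite signs, lost when WT alone passed it, gained when cKO alone did, and exaggerated or dampened when both passed it in the same direction with the larger change in cKO or in WT. Of the 20 genes, 12 were reversed (10 negative, 2 positive), 4 lost, 4 gained, and 0 exaggerated or dampened. The limit is on the size of the change alone, so a shape does not mean that each change passed the test. Among reversed genes, the WT change missed it in Hoxd13 (adjusted p = 0.128, limma), Pcbd2 (0.0607) and Clca3a2 (0.0506). The cKO change missed it in Gm7099 (adjusted p = 0.186, limma). Over all 13255 genes, 2.74% were reversed, 25.4% lost, 13.6% gained, 5.98% exaggerated and 7.73% dampened, and 44.6% were below the limit in both genotypes. The split moved with the limit: at 0.2 the 20 genes were 15 reversed, 4 lost and 1 gained, and at 0.5 they were 3 reversed, 5 lost, 7 gained and 5 below the limit in both. Selection for a large interaction favours opposite changes, so the shares among the called genes are a description.

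Hk2 (chr6:82725025-82774454, minus strand) encodes hexokinase 2, which commits glucose to glycolysis, and it showed a gained response. Hk2 was at 26.1, 30.9, 30.7 and 32.8 FPKM in WT, 22.6, 25.8, 23.5 and 21.7 in cKO, 31.2, 30.5, 32.9 and 30.7 in WT_DSS, and 40.5, 41, 48.6 and 43.7 in cKO_DSS. All cKO_DSS libraries lay above all others, and all cKO libraries lay below all WT libraries. Hk2 rose with DSS in cKO by 0.86 (adjusted p = 5.55e-05, limma) and had a change of 0.06 in WT (adjusted p = 0.638), and its interaction was 0.81 ± 0.12 (SE; adjusted p = 0.0239). Ranges of 4 against 4 libraries that do not overlap were found for 28.3% of all genes in the DSS comparison in WT, for 19.1% in that in cKO, for 15.5% between the genotypes on water and for 10% after DSS.

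Hoxd13 (chr2:74668310-74671599, plus strand) encodes a posterior homeobox factor that patterns the hindgut, and its response was reversed. Hoxd13 was at 22.7, 26.7, 16.8 and 19.6 FPKM in WT, 27.1, 22, 26.6 and 24.9 in cKO, 30.6, 30.4, 24.3 and 29.1 in WT_DSS, and 11.3, 11.8, 5.01 and 9.05 in cKO_DSS. The 4 cKO_DSS libraries lay below the other 12, whose 3 groups overlapped. Hoxd13 fell by 1.4 with DSS in cKO (adjusted p = 0.000457, limma) and had a change of 0.41 in WT (adjusted p = 0.128), for an interaction of -1.81 ± 0.28 (SE; adjusted p = 0.0251). The other member of its cluster with a value to report, Hoxd11, had an interaction of -0.62 ± 0.21 (SE; adjusted p = 0.133, limma), or -0.39 after GC correction, at 0.54 to 1.27 FPKM as group means.

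The promoters of these 2 genes are shown because Hk2 rose and Hoxd13 fell in the same cKO_DSS libraries. Each window runs from 250 bases before to 50 after the start in RefSeq's GRCm38.p6 annotation, at chr6:82774405-82774704 (minus strand) for Hk2 and chr2:74667975-74668274 (plus strand) for Hoxd13. Capitals mark ACGTG, the core that hypoxia-inducible factors bind, on either strand, so that a match on the other strand reads CACGT.
Hk2: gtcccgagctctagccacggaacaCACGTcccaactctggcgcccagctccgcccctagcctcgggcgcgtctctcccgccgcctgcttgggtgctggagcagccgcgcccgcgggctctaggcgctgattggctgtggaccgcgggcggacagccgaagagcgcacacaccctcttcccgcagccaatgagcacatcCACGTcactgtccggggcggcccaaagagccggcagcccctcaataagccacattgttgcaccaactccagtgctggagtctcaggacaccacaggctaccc
Hoxd13: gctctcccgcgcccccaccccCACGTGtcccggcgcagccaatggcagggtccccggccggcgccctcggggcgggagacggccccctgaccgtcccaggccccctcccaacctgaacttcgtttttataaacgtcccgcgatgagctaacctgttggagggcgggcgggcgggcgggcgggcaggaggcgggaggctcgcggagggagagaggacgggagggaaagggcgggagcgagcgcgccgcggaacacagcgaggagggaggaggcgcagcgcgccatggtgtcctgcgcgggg
The Hk2 window had a GC content of 67.3% and held 2 matches, and the Hoxd13 window had 74.3% and held 2, which are the 2 strands of the palindrome CACGTG. The core was present in 19.6% of all 32851 promoter windows of that length, in 5 of 18 windows of 13 called genes (27.8%), and in 19 of 33 windows of 23 glycolysis and hypoxia genes (57.6%). GGGCGG, the GC box, was present in 35.7% of all windows, 55.6% of those of called genes and 69.7% of those of glycolysis and hypoxia genes. For the CCAAT box the shares were 37.4%, 44.4% and 48.5%, and for TATAAA, the TATA box, 13.6%, 5.56% and 3.03%. The relation of these shares to base composition was not tested. A match describes the window and is not a site shown to be bound.

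Of the genes with a reversed response, Rdx (chr9:52047173-52100463, plus strand) encodes radixin, which ties actin filaments to the plasma membrane. Rdx was at 2.95, 3.73, 2.79 and 2.75 FPKM in WT, 5.44, 4.67, 4.43 and 4.19 in cKO, 4.42, 5.74, 4.34 and 3.68 in WT_DSS, and 3.18, 3.11, 2.08 and 2.59 in cKO_DSS. The cKO_DSS values lay below the cKO and WT_DSS values and overlapped those of WT, and all cKO values lay above WT. The interaction was -1.06 ± 0.18 (SE; adjusted p = 0.0401, limma), with a rise of 0.45 in WT and a fall of 0.61 in cKO.

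Polr2k (chr15:36174010-36177010, plus strand) encodes a small subunit shared by the nuclear RNA polymerases. Polr2k was at 2.79, 4.6, 7.08 and 4.29 FPKM in WT, 7.03, 12.5, 13.2 and 9.8 in cKO, 13.6, 12.9, 7.54 and 14.4 in WT_DSS, and 7.57, 5.64, 3.25 and 3.84 in cKO_DSS. The 4 WT_DSS values lay above those of WT, and the other pairs of groups overlapped. Its interaction was -2.18 ± 0.38 (SE; adjusted p = 0.0401, limma), from 1.22 in WT and -0.96 in cKO. Its spread within groups was wide, with an SD of 1.78 FPKM in WT around a mean of 4.69 (n = 4).

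Slc17a9 (chr2:180725263-180742280, plus strand) encodes the vesicular nucleotide transporter, which loads ATP into secretory vesicles. Slc17a9 was at 30.9, 29.1, 28.7 and 28.2 FPKM in WT, 29.1, 31.8, 32 and 30.9 in cKO, 21.1, 20.9, 22.6 and 24.2 in WT_DSS, and 38, 32.8, 41.7 and 45.7 in cKO_DSS. On water the genotypes overlapped, after DSS all WT_DSS libraries lay below the 8 on water and all cKO_DSS libraries lay above them. It fell by 0.38 in WT (adjusted p = 0.00806, limma) and rose by 0.33 in cKO (adjusted p = 0.0222), for an interaction of 0.72 ± 0.13 (SE; adjusted p = 0.0401), which was 0.48 after GC correction (adjusted p = 0.114).

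Vat1 (chr11:101458745-101466230, minus strand), which encodes a vesicle membrane protein, was the other positive gene with a reversed response. Vat1 was at 12.7, 9.85, 12.2 and 14 FPKM in WT, 9.02, 7.75, 7.47 and 9.72 in cKO, 8.49, 5.23, 8.93 and 7.27 in WT_DSS, and 13.2, 10.1, 14.6 and 18.1 in cKO_DSS. WT_DSS lay below WT, and cKO_DSS lay above both cKO and WT_DSS. Its interaction was 1.29 ± 0.24 (SE; adjusted p = 0.0474, limma), from -0.65 in WT and 0.64 in cKO.

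The remaining protein-coding genes with a reversed response were negative. They were Nucks1 (-0.81 ± 0.14, SE), a chromatin-associated kinase substrate, Nusap1 (-0.76 ± 0.13), a spindle microtubule protein, Pcbd2 (-1.33 ± 0.24), a dehydratase that also serves as a dimerization cofactor of HNF1 factors, and Clca3a2 (-0.94 ± 0.17), of the CLCA family. Pcbd2 was at 9.8 to 16.9 FPKM in WT, 15.7 to 27.6 in cKO, 15.6 to 21.3 in WT_DSS and 9.52 to 12.6 in cKO_DSS. Nucks1 was at 14.6 to 16.5 FPKM in WT, 20.4 to 23.7 in cKO, 16.2 to 22 in WT_DSS and 13.8 to 17.1 in cKO_DSS. Nusap1 was at 4.76 to 5.81 FPKM in WT, 7.18 to 8.2 in cKO, 6.11 to 7.69 in WT_DSS and 4.72 to 6.67 in cKO_DSS. In these 3 genes and in Clca3a2, which had means of 4.2, 7.41, 5.57 and 4.5 FPKM in the order WT, cKO, WT_DSS and cKO_DSS, the mean of cKO on water was the highest of the 4, and the cKO_DSS mean differed from the WT mean by less than the SD of WT. Clca3a2 was the 1 gene of the 20 whose difference on water also passed the test, at 0.69 (adjusted p = 0.0469, limma).

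The response was gained, besides Hk2 and a pseudogene, in Septin10 and Ext1. Septin10 (chr10:59141627-59221847, minus strand) encodes a septin, a GTP-binding cytoskeletal protein. Septin10 was at 4.32, 4.43, 4.67 and 4.78 FPKM in WT, 6.15, 6.36, 5.51 and 5.36 in cKO, 5.59, 5.89, 5.56 and 5.11 in WT_DSS, and 4.12, 4.38, 3.85 and 3.81 in cKO_DSS. Its groups were ordered with WT and cKO_DSS low and cKO and WT_DSS high, and no low library reached a high one. Its interaction was -0.68 ± 0.10 (SE; adjusted p = 0.0239, limma), from 0.24 in WT (adjusted p = 0.0233) and -0.44 in cKO (adjusted p = 0.000997). The WT change was thus below the limit of 0.3 but passed the test, with the opposite sign to that in cKO. Ext1 (chr15:53064038-53346159, minus strand), which encodes a glycosyltransferase that builds heparan sulfate chains, ran the other way. Ext1 was at 4.87, 5.03, 5.94 and 5.13 FPKM in WT, 4.2, 4.07, 3.59 and 4.2 in cKO, 3.9, 4.16, 4.69 and 4.78 in WT_DSS, and 5.85, 5.51, 6.13 and 5.2 in cKO_DSS. The values of WT and cKO_DSS lay above those of cKO and WT_DSS with no overlap. Ext1 had 0.63 ± 0.11 (SE; adjusted p = 0.0422, limma), from -0.21 in WT (adjusted p = 0.0575) and 0.41 in cKO (adjusted p = 0.00383).

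The response was lost in Yif1b, Tbl1xr1 and Rc3h2. Yif1b (chr7:29238329-29247597, plus strand) encodes a protein of transport between the endoplasmic reticulum and the Golgi. Yif1b was at 26.7, 22.9, 25.7 and 28.1 FPKM in WT, 17.3, 20.8, 12.9 and 15.8 in cKO, 9.2, 11.1, 12 and 10.7 in WT_DSS, and 15.4, 12.4, 18.9 and 20.3 in cKO_DSS. WT values lay above all others, and the cKO values with and without DSS overlapped. Yif1b fell by 1.19 in WT (adjusted p = 0.000195, limma) and had 0.00 in cKO (adjusted p = 0.997), for an interaction of 1.19 ± 0.21 (SE; adjusted p = 0.0401). Tbl1xr1 (chr3:22076652-22216594, plus strand), a subunit of the nuclear receptor corepressor complex, was lowest in WT. Tbl1xr1 was at 7.5, 7.92, 8.94 and 9.31 FPKM in WT, 13.6, 12.3, 11.1 and 11.1 in cKO, 14, 13.8, 12.7 and 12.6 in WT_DSS, and 11.8, 12.2, 10.7 and 11 in cKO_DSS. The WT values lay below those of the other 3 groups. It rose by 0.60 in WT (adjusted p = 0.000398, limma) and had -0.06 in cKO (adjusted p = 0.667), for an interaction of -0.67 ± 0.12 (SE; adjusted p = 0.0401). Rc3h2, which encodes the RNA-binding protein Roquin-2, rose by 0.55 in WT (adjusted p = 0.000691, limma), had -0.10 in cKO, and had an interaction of -0.65 ± 0.12 (SE). After GC correction the interaction was smaller by more than 1.5 times in these 3 genes, at 0.78 for Yif1b, -0.43 for Tbl1xr1 and -0.36 for Rc3h2, and none of the 3 was called.

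**Figure D2:**
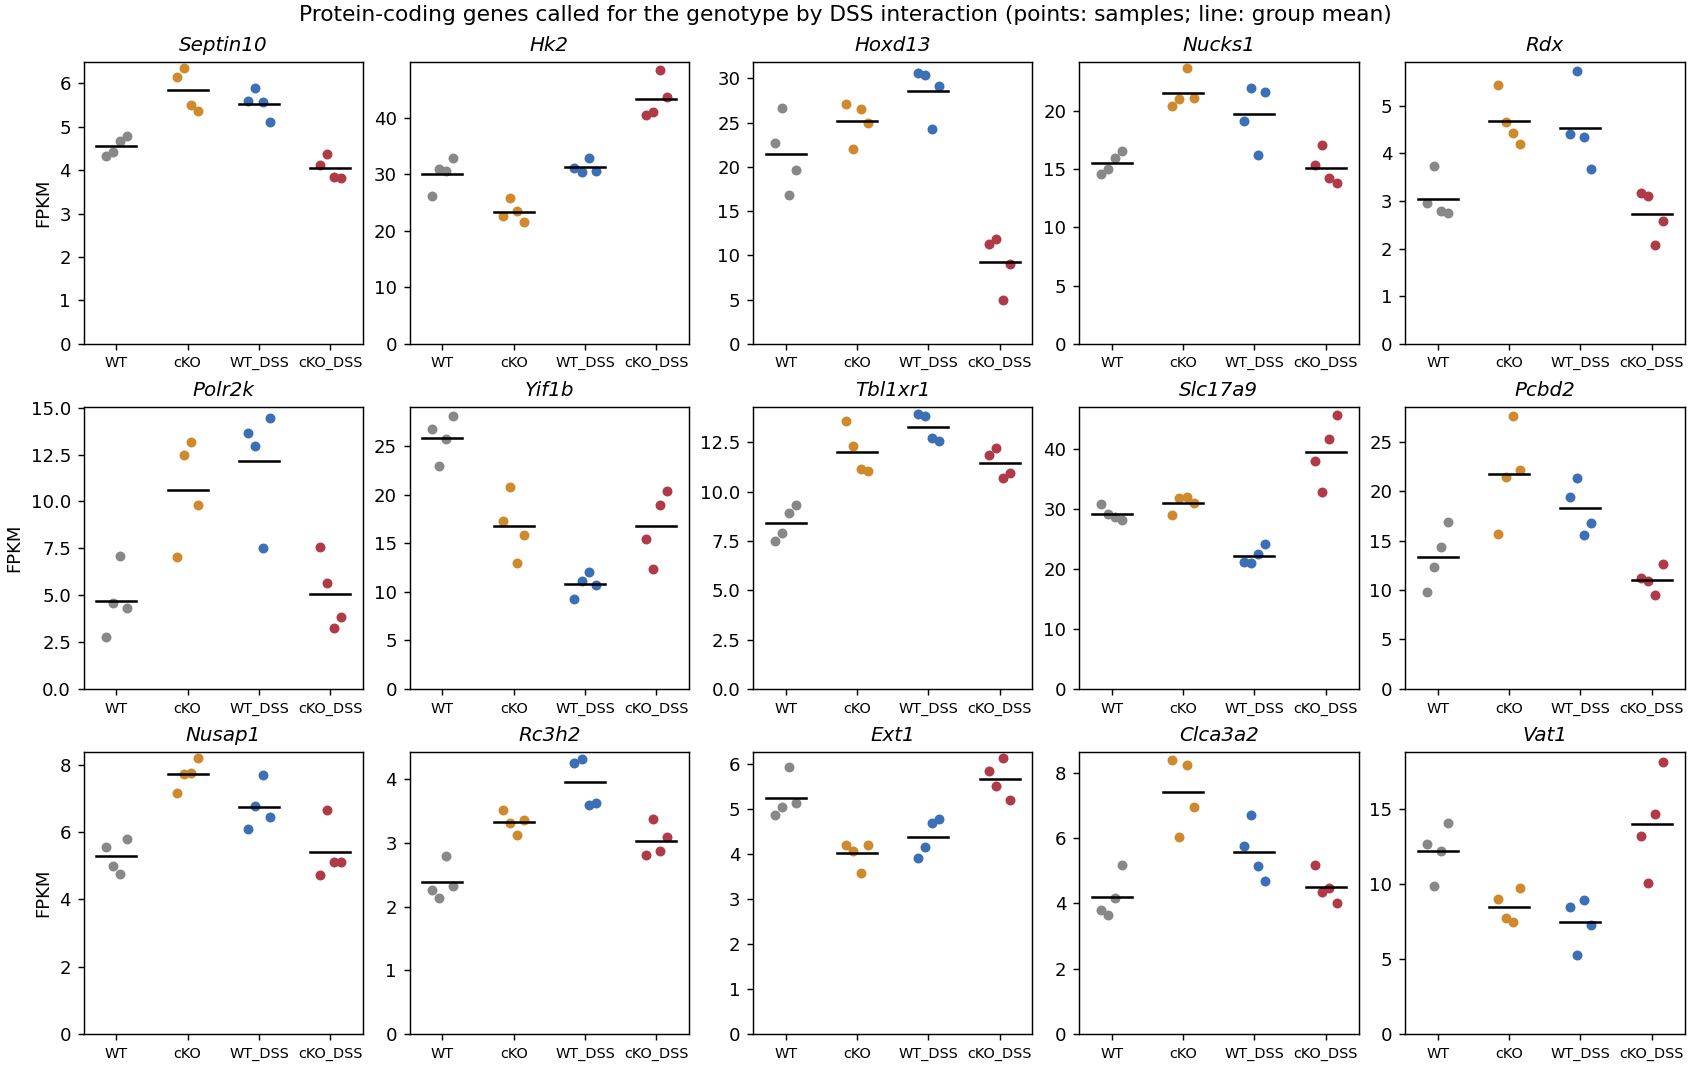
FPKM (vertical axis, each panel from 0) of the 15 protein-coding genes called for the interaction, in the 4 libraries of each group (points), with the group mean (line). In Septin10 and Ext1 the low and high pairs of groups do not overlap, in Hoxd13 the cKO_DSS points are the lowest, and in Hk2 and Slc17a9 they are the highest.

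The other 5 called genes were 4 pseudogenes and an antisense gene. Gm10036, a processed pseudogene, was at 7.9 to 49.5 FPKM in the 12 other libraries and at 1.31 to 2.4 in cKO_DSS, with an interaction of -4.03 ± 0.60 (SE; adjusted p = 0.0239, limma). Gm14038 had -1.28 ± 0.22, Gm7099 -1.49 ± 0.27, and Rps15-ps3, at 0.11 to 2.61 FPKM, 1.51 ± 0.25. Gm15564, annotated as antisense (chr16:35966752-35983230, minus strand), was at 0.33 to 0.98 FPKM in WT, 1.58 to 2.33 in cKO, 1.35 to 2.54 in WT_DSS and 0.08 to 0.74 in cKO_DSS, with -1.89 ± 0.26. The counting is not stated to use strand, and pseudogene reads can belong to a near-identical parent gene, so which transcript these 5 values measure is uncertain.

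The 5 protein-coding genes next in order of p with a positive interaction all missed the threshold at an adjusted p of 0.0509 (limma), and their values are given for comparison. Chga encodes chromogranin A, the granule protein of enteroendocrine cells. Chga was at 10.2, 9.05, 14.4 and 9.06 FPKM in WT, 6.72, 4.95, 5.01 and 4.07 in cKO, 5.78, 4.39, 7.93 and 3.97 in WT_DSS, and 7.12, 7.84, 16 and 13.7 in cKO_DSS. Both cKO_DSS 3 and 4 lay above every cKO and WT_DSS value, while cKO_DSS 1 and 2 lay within the range of WT_DSS. Its interaction was 1.78 ± 0.34 (SE), from -0.86 in WT and 0.92 in cKO. Ly6d, of the LY6 family of small surface proteins, was at most at 2.88 FPKM in the other groups and at 8.25 to 18.1 in cKO_DSS, with 2.04 ± 0.40. Mmp15, a membrane-bound metalloproteinase, had 0.81 ± 0.15 (0.41 after GC correction), Gadd45g, a stress-induced growth arrest gene, had 1.26 ± 0.24, and Esyt1, which tethers the endoplasmic reticulum to the plasma membrane, had 0.71 ± 0.14.

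Gene lists are described by the number of members at an unadjusted p under 0.05 and by the median interaction. Over all 13255 genes the same values are 23.2%, with 11.8% positive and 11.4% negative, and a median of -0.01. Of all listed genes, Hk2 and Hoxd13 were called, and the members named in what follows missed the threshold for the interaction unless said otherwise.

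Interferon gamma inducible GTPases, which attack vacuoles that hold pathogens, rose in both genotypes, by less in cKO as medians. All 12 kept members rose with DSS in WT and all 12 in cKO (limma), with median changes of 1.94 and 1.14. The median difference of cKO from WT was 0.35 on water and -0.33 after DSS, where 0 of the 12 passed the test between the genotypes (limma). The interaction had a median of -0.76, with 7 of 12 members negative and 0 positive at an unadjusted p under 0.05, and 10 of 12 had the dampened shape. It stayed between -0.86 and -0.545 over the alternatives, with -0.65 after GC correction (7 negative, 2 positive) and -0.64 without cKO_DSS 3 and 4 (3 negative). Irgm2 was at 16.4, 15.4, 12.1 and 9.49 FPKM in WT, 14.9, 19.5, 24.5 and 22.9 in cKO, 60.2, 55.2, 51.9 and 62.3 in WT_DSS, and 41.3, 56.9, 40.7 and 36.7 in cKO_DSS. Irgm2 rose in both genotypes with no overlap, and the cKO_DSS and WT_DSS ranges overlapped. Its interaction was -0.98 ± 0.25 (SE; adjusted p = 0.0771, limma). Igtp, with -0.73 ± 0.20, overlaps Irgm2 on the same strand, so the reads of the pair are uncertain. Irgm1 had -0.83 ± 0.23 and Gbp7 -0.86 ± 0.28.

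Type I interferon genes, the antiviral set, rose as widely, 27 of 29 in WT and 26 of 29 in cKO, with medians of 1.25 and 1.1. The median difference of cKO from WT was 0.37 on water and 0.09 after DSS, where 0 of the 29 passed the test between the genotypes (limma). The list's median interaction was -0.29, and 1 member was positive and 1 negative at an unadjusted p under 0.05. The median was -0.12 without WT 4 and WT_DSS 2. Among 8 epithelial chemokines and Ido1, the median was -0.44, with 4 negative and 1 positive. Cxcl10, a ligand of the chemokine receptor CXCR3, rose by 2.58 in WT and by 1.4 in cKO, with -1.19 ± 0.40 (SE; adjusted p = 0.13, limma). Ido1, which degrades tryptophan, rose by 2.36 in WT and 1.61 in cKO, and was lower in cKO_DSS than in WT_DSS by -0.87 (adjusted p = 0.0132, limma). This list moved by more than 1.5 times, to -0.17 after GC correction (3 negative) and -0.21 without cKO_DSS 3 and 4 (2 negative).

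The 7 genes of MHC class II presentation had a median of 0.44, with 2 positive and 1 negative. Cd74, the invariant chain, was at 42.9 to 112 FPKM in WT, 14.8 to 26.6 in cKO, 55.1 to 93.9 in WT_DSS and 52.3 to 64.5 in cKO_DSS. It was lower in cKO than in WT on water by -1.63 (adjusted p = 0.0287, limma), rose with DSS in cKO by 1.54 (adjusted p = 0.0016), and had an interaction of 1.38 ± 0.37 (SE; adjusted p = 0.0907). H2-Ab1, a class II chain, was also lowest in cKO on water, with means of 8.39, 2.17, 6.06 and 4.15 FPKM in WT, cKO, WT_DSS and cKO_DSS, with 0.91 ± 0.43 (SE), which was 0.60 after GC correction and 0.41 without WT 4 and WT_DSS 2.

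**Figure D3:**
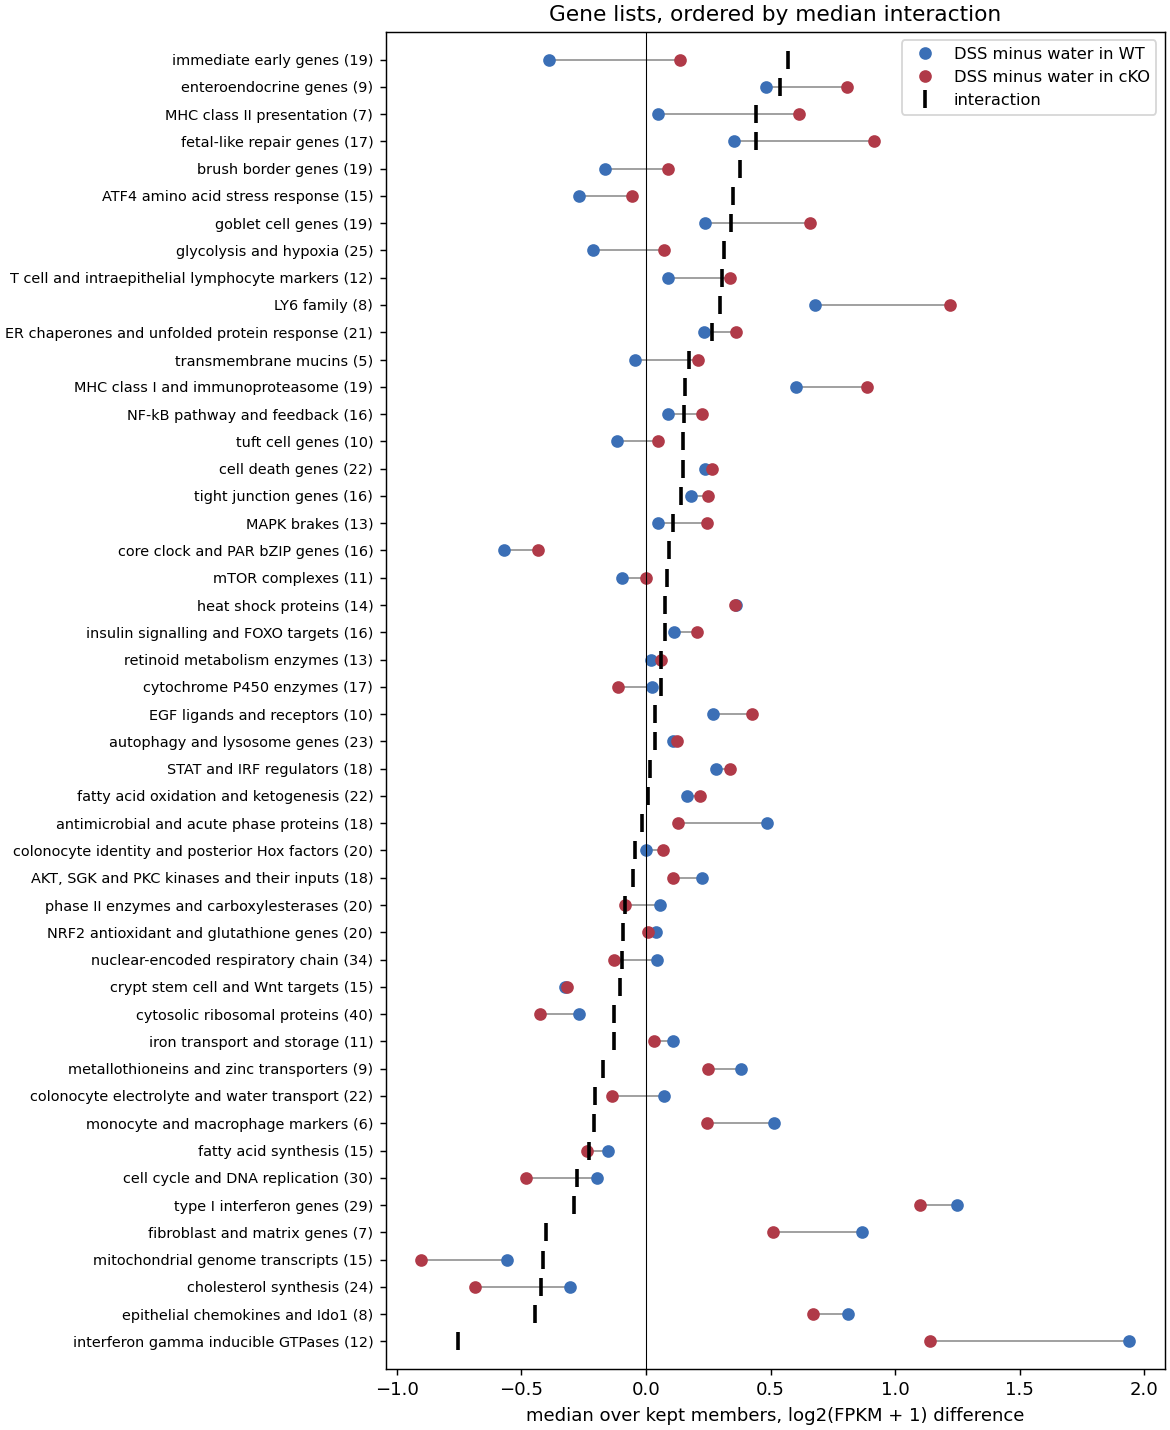
Median change with DSS in WT (blue) and in cKO (red) and median interaction (black bar) over the kept members of each gene list with at least 5, as differences of log2(FPKM + 1); the number of members stands in parentheses. The interferon gamma inducible GTPases are lowest, at -0.76, and the immediate early genes highest, at 0.57, a place that the enteroendocrine genes take after GC correction.

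Immediate early genes, transcription factors and regulators switched on within minutes of a stimulus, had a median of 0.57, with 12 of 19 positive and 0 negative. In WT, 9 of 19 fell with DSS and 1 rose, in cKO 0 fell and 2 rose, and after DSS 8 were higher in cKO than in WT (limma). Junb was at 83.2, 119.6, 123 and 109.6 FPKM in WT, 105, 124, 75.5 and 78 in cKO, 39.9, 42.9, 59 and 36.2 in WT_DSS, and 61.5, 72.4, 142 and 158 in cKO_DSS. Junb, an AP-1 subunit, was below WT in all WT_DSS libraries, and cKO_DSS 3 and 4 were the 2 highest of the 16 while cKO_DSS 1 and 2 lay below the WT range. Its interaction was 1.38 ± 0.39 (SE; adjusted p = 0.0951, limma), and 0.87 after GC correction and 0.80 without cKO_DSS 3 and 4. Nr4a1, an orphan nuclear receptor, fell by 1.35 in WT (adjusted p = 0.00109, limma) and had -0.27 in cKO, with 1.08 ± 0.31. The median was 0.36 after GC correction (5 positive) and 0.36 without cKO_DSS 3 and 4 (6 positive), each moved by more than 1.5 times. This median was the highest among lists with at least 5 kept members as reported, but under both of these alternatives that of the enteroendocrine genes was higher.

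Socs3, the feedback inhibitor of STAT3 signalling, was at 5.83 to 7.98 FPKM in WT, 3.36 to 6.82 in cKO, 4.5 to 6.14 in WT_DSS and 8.94 to 16.5 in cKO_DSS. The 4 cKO_DSS libraries lay above the other 12, and its interaction was 1.33 ± 0.27 (SE; adjusted p = 0.0561, limma). Among 16 genes of the NF-kB pathway the median was 0.15, or 0.07 after GC correction, with 2 positive and 1 negative. Bcl3 had 0.94 ± 0.22 (SE), or 0.43 after GC correction, and Nfkb2 had 0.68 ± 0.19, or 0.28 after GC correction and 0.43 without cKO_DSS 3 and 4.

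Fetal-like repair genes, which mark the regenerating epithelium, had a median of 0.44, with 7 of 17 positive and 0 negative. Of the 17, 7 rose with DSS in WT and 11 in cKO, and 7 were higher in cKO_DSS than in WT_DSS (limma). Krt7, a simple-epithelium keratin, had DSS changes of 0.23 in WT and 1.15 in cKO, with 0.92 ± 0.23 (SE; adjusted p = 0.0746, limma). Plaur, the urokinase receptor, rose by 0.87 in WT and 1.53 in cKO. The median of the fetal-like genes was 0.44 after GC correction, 0.44 without cKO_DSS 3 and 4, and 0.27, with 4 positive, without WT 4 and WT_DSS 2. The LY6 family had a median of 0.30, with 3 of 8 positive, and 0.19 after GC correction. Retinoid metabolism enzymes, another list, had 3 of 13 positive and 1 negative and a median of 0.06, which was 0.23 after GC correction. Among them Aldh1a3, a retinoic acid synthesizing enzyme, had means of 0.41, 0.65, 1.17 and 4.88 FPKM in WT, cKO, WT_DSS and cKO_DSS.

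Tight junction genes, which seal the space between epithelial cells, had 6 of 16 positive and 2 negative, with a median of 0.14. The count was 2 positive and 1 negative after GC correction and 2 and 0 without cKO_DSS 3 and 4, with medians of 0.13 and 0.14. Cldn4 was at 14.1, 12.4, 17.3 and 12.6 FPKM in WT, 17.6, 26.7, 17.5 and 26.7 in cKO, 19.2, 14.8, 17.7 and 16.3 in WT_DSS, and 52.8, 47.3, 58.4 and 76.2 in cKO_DSS. The 4 cKO_DSS values of Cldn4, a sealing claudin, lay above the other 12. Cldn4 rose by 1.37 with DSS in cKO (adjusted p = 0.000215, limma), had 0.26 in WT (adjusted p = 0.263), was higher in cKO_DSS than in WT_DSS by 1.71 (adjusted p = 0.000249), and had an interaction of 1.12 ± 0.24 (SE; adjusted p = 0.0604). Cldn3, at means of 399 to 541 FPKM, had 0.67 ± 0.19 (SE), but 0.16 after GC correction (adjusted p = 0.507, limma) and 0.44 without cKO_DSS 3 and 4.

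Enteroendocrine genes, of the hormone-secreting cells, had a median of 0.54, with 5 of 9 positive and 0 negative, 0.59 after GC correction and 0.67 without cKO_DSS 3 and 4. With DSS, 5 of the 9 rose and 1 fell in WT, and 6 rose and 0 fell in cKO (limma). The median changes were 0.48 in WT and 0.81 in cKO, and 4 members had the exaggerated shape and 3 the reversed shape. Besides Chga, Sst, the somatostatin gene, had 1.39 ± 0.40 (SE) and Chgb, a related granin, 1.30 ± 0.37 (0.83 without cKO_DSS 3 and 4), both with a reversed shape, while Pyy, the peptide YY gene, rose in cKO by 0.81 (adjusted p = 0.0149, limma) and had 0.09 in WT. In bulk samples, fewer cells of a type and less RNA per cell cannot be told apart. Goblet cell genes had a median of 0.34, with 6 of 19 positive and 1 negative, and with 3 positive and 0 negative without cKO_DSS 3 and 4. Spdef, a transcription factor of goblet cell maturation, rose in cKO by 0.79 (adjusted p = 0.00349, limma), had 0.01 in WT, and had an interaction of 0.78 ± 0.21 (SE; adjusted p = 0.0935), which was 0.38 after GC correction (adjusted p = 0.338). Gfi1, a factor of the secretory lineage, had 1.32 ± 0.31.

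Brush border genes, of the absorptive cell's apical membrane, had 8 of 19 positive and 1 negative and a median of 0.38, which was 0.23 after GC correction and 0.20 without cKO_DSS 3 and 4, with 4 positive each time. The list also holds keratin genes, and Krt18 and Krt19 are among its 4 members of smallest p. In WT 7 fell with DSS and 0 rose, and in cKO 0 fell and 2 rose (limma). Krt18, a keratin of simple epithelia, rose in cKO by 0.65 (adjusted p = 0.00378, limma) and had -0.08 in WT, and Ezr, which encodes ezrin, fell by 0.29 in WT (adjusted p = 0.0249) and had 0.09 in cKO. Krt19 fell by 0.61 in WT (adjusted p = 0.034) and had 0.33 in cKO. Antimicrobial and acute phase proteins, a separate list, had 2 of 18 positive and 1 negative and a median of -0.01. Of these, Nox1, the epithelial superoxide-producing oxidase, was at 11.8 to 22.8 FPKM in the other 3 groups and 7.97 to 9.97 in cKO_DSS, with -1.11 ± 0.23 (SE; adjusted p = 0.0571, limma). Its regulatory partner Noxa1 had 0.70 ± 0.26, or 0.41 after GC correction and 0.36 without cKO_DSS 3 and 4.

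Glycolysis and hypoxia genes, the list that holds Hk2, had 11 positive and 1 negative among 25 gene IDs of 24 symbols, with a median of 0.32. Without cKO_DSS 3 and 4 the median was 0.24, with 6 positive, and after GC correction it was 0.25, with 8 positive. In WT 5 fell with DSS and 0 rose, and in cKO 0 fell and 3 rose (limma). Egln3 was at 31.1, 26.9, 24.3 and 22.6 FPKM in WT, 21.2, 17.8, 19.9 and 13.9 in cKO, 13.3, 17.6, 18.3 and 15.6 in WT_DSS, and 23.7, 23.5, 23.3 and 19.7 in cKO_DSS. Egln3, a prolyl hydroxylase that marks hypoxia-inducible factors for degradation and is itself induced by them, lay lower in all WT_DSS libraries than in WT. It fell by 0.66 in WT (adjusted p = 0.00398, limma), had 0.31 in cKO, and had an interaction of 0.97 ± 0.19 (SE; adjusted p = 0.053). Vegfa, the angiogenic growth factor, fell by 0.65 in WT (adjusted p = 0.00189) and had 0.05 in cKO, with 0.70 ± 0.16 (SE; adjusted p = 0.0701).

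Chaperones of the endoplasmic reticulum and the unfolded protein response had 7 of 21 positive and 0 negative, with a median of 0.27. Hyou1 rose in cKO by 0.75 (adjusted p = 0.0018, limma), had -0.11 in WT, and had 0.86 ± 0.18 (SE; adjusted p = 0.0606). ATF4 stress response genes had 3 of 15 positive and a median of 0.35, which moved to 0.10 after GC correction and 0.20 without cKO_DSS 3 and 4. Ddit4, an inhibitor of mTOR complex 1, had 0.89 ± 0.23 (SE), or 0.56 after GC correction.

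Cholesterol synthesis genes ran the other way, with 8 of 24 negative and 1 positive and a median of -0.42. With DSS, 8 of 24 fell in WT and 17 of 24 in cKO (limma), with medians of -0.30 and -0.69. Idi1 was at 41, 32.5, 26.7 and 15.5 FPKM in WT, 32.9, 40.4, 36.5 and 47.8 in cKO, 32.9, 40.6, 21.6 and 39.8 in WT_DSS, and 23, 23.5, 18.5 and 14.5 in cKO_DSS. Idi1, an isomerase of the early pathway, was lower in all cKO_DSS libraries than in cKO, and its WT values ranged widely, with WT 4 at the lower end. It fell by 0.96 in cKO (adjusted p = 0.0213, limma), had 0.25 in WT, and had -1.22 ± 0.36 (SE; adjusted p = 0.103). Cyp51 fell by 0.66 in cKO (adjusted p = 0.0192) and had 0.02 in WT. The list's median was -0.39 after GC correction and -0.42 without cKO_DSS 3 and 4, and it moved to -0.12, with 3 negative, without WT 4 and WT_DSS 2. The related desaturase gene Scd2 had -0.74 ± 0.21 (SE).

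Cell cycle and DNA replication genes had 12 of 30 negative and 1 positive, with a median of -0.28. With DSS, 8 fell and 2 rose in WT, and 16 fell and 0 rose in cKO (limma). Top2a, the topoisomerase of dividing cells, was at 15.4 to 16.7 FPKM in WT, 22.5 to 24.3 in cKO, 17.8 to 21.1 in WT_DSS and 13.5 to 22.2 in cKO_DSS, where cKO_DSS 2 was the high library. It fell by 0.46 in cKO (adjusted p = 0.0123, limma), had 0.27 in WT, and had -0.73 ± 0.16 (SE; adjusted p = 0.0604). Ccna2, a cyclin of S and G2 phase, fell by 0.52 in cKO (adjusted p = 0.00449) and had 0.06 in WT. The median was -0.26 after GC correction and -0.33 without cKO_DSS 3 and 4, with 6 and 8 negative. Among nuclear-encoded respiratory chain genes 11 of 34 were negative and 2 positive, with a median of -0.10, and without cKO_DSS 3 and 4 the count of negative members was 3. That median was -0.20 without WT 4 and WT_DSS 2.

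Markers of other cell types summed to at most 104.6 FPKM per list, below Epcam and Krt8, but they were not absent. Fibroblast and matrix genes summed to 6.92 to 10.6 FPKM in WT, 7.87 to 9.78 in cKO, 17 to 24.1 in WT_DSS and 13.6 to 16.6 in cKO_DSS over 12 genes, and their 7 kept members had a median interaction of -0.40 with 3 negative. T cell markers (15 genes) summed to 27 to 30.2 FPKM in WT, 18.5 to 37.9 in cKO, 27.2 to 36.3 in WT_DSS and 31.7 to 45.5 in cKO_DSS, and their 12 kept members had a median interaction of 0.31, or 0.17 without cKO_DSS 3 and 4. B and plasma cell markers (9 genes) summed to 7.88 to 36.2, 14.7 to 45.9, 16.5 to 27.4 and 10.7 to 20.6 FPKM in the same order. Only 4 of these 9 genes were kept, with a median interaction of -0.895 and 3 negative, which was -0.78 after GC correction and -0.81 without cKO_DSS 3 and 4, with 2 negative each time. Monocyte and macrophage markers (11 genes) summed to 37.1 to 50.9, 43.2 to 61.4, 68.7 to 80.4 and 72.2 to 104.6. Among single markers of these cells, Lyz2 had group means of 1.67 to 4.91 FPKM, C1qb of 0.08 to 0.97 and Csf1r of 0.12 to 0.43. Most of each sum thus lay in other genes of the list. Of neutrophil markers, S100a9 was at 0 in 15 libraries and S100a8 in 13, while Ly6g was at 31.5 to 76.7 FPKM. Sox10, of enteric glia, was at 0 in all 16, and 8 endothelial markers summed to at most 1.73 FPKM. The part of these cells in the changes of the interferon, chemokine and class II genes was not tested.

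GC content moved with the interaction. Across 12867 genes with a known transcript, the Spearman rho between the interaction and GC content was 0.586, against -0.53 for DSS in WT and 0.05 for DSS in cKO, given as a description since the genes share the 16 libraries. The median GC content was 53.8% over the 6 positive called genes, 43.7% over the 14 negative and 49.5% over all. Libraries of WT had a rho of 0.19 to 0.498 and those of WT_DSS of -0.483 to 0.0178. The correction that removes this trend within each library left 14.3% of genes at an unadjusted p under 0.05, against 23.2% without it.

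**Figure D4:**
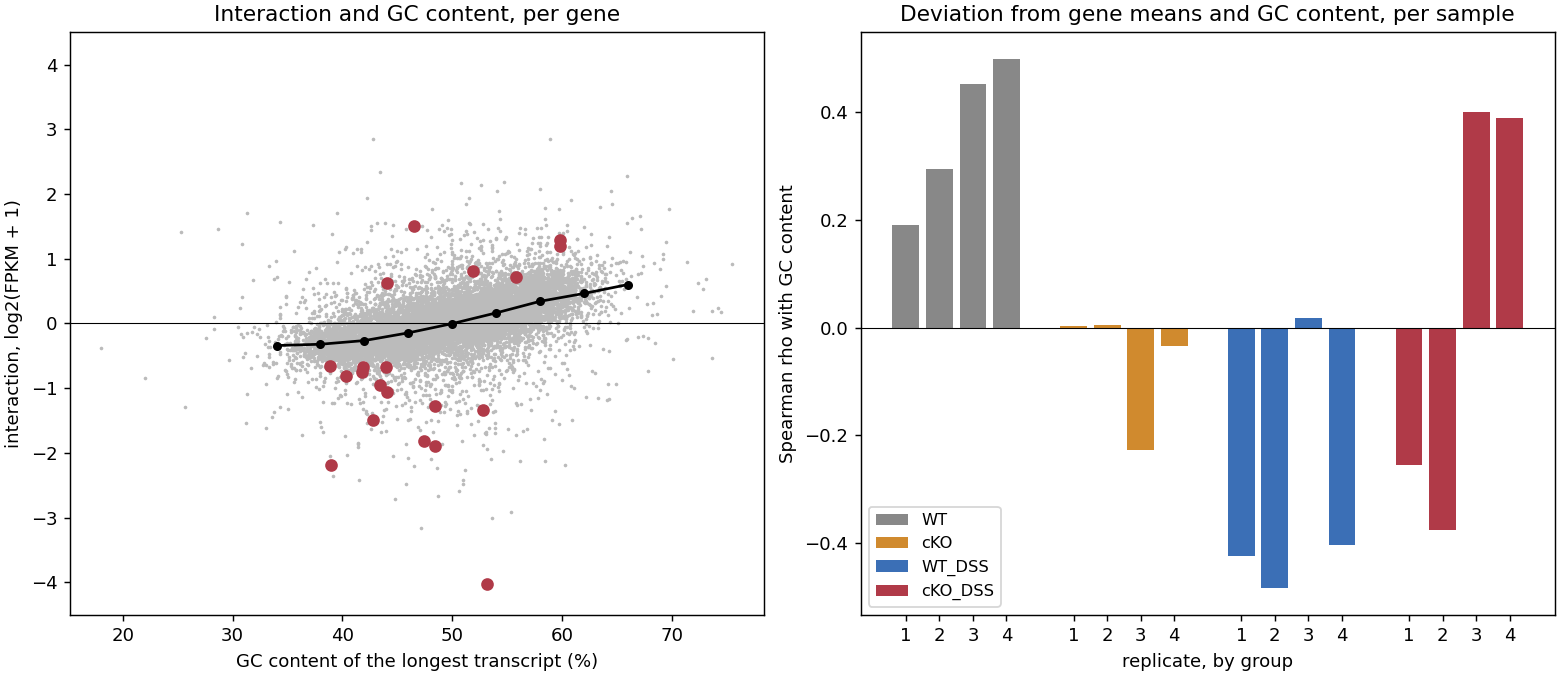
Left, interaction per gene on the log2(FPKM + 1) scale against the GC content of its longest transcript in percent, with the 20 called genes in red and the median in GC bins in black; right, Spearman rho between each library's deviation from the gene means and GC content, by group. The median climbs with GC content, and cKO_DSS 3 and 4 have positive bars while cKO_DSS 1 and 2 have negative ones.

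The number of genes called depended on single libraries. It was 1240 without cKO_DSS 2, 393 without cKO_DSS 1 and 125 without WT_DSS 3, and 0 without WT_DSS 2, without WT_DSS 4 or without cKO_DSS 4, where limma found 2397, 2609 and 2216 genes at an unadjusted p under 0.05. The 20 genes were among those called without cKO_DSS 2, without cKO_DSS 1 and without WT_DSS 3, 20 of 20 each time. These fits reuse the libraries in which the 20 were called, so the overlap is a description.

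**Figure D5:**
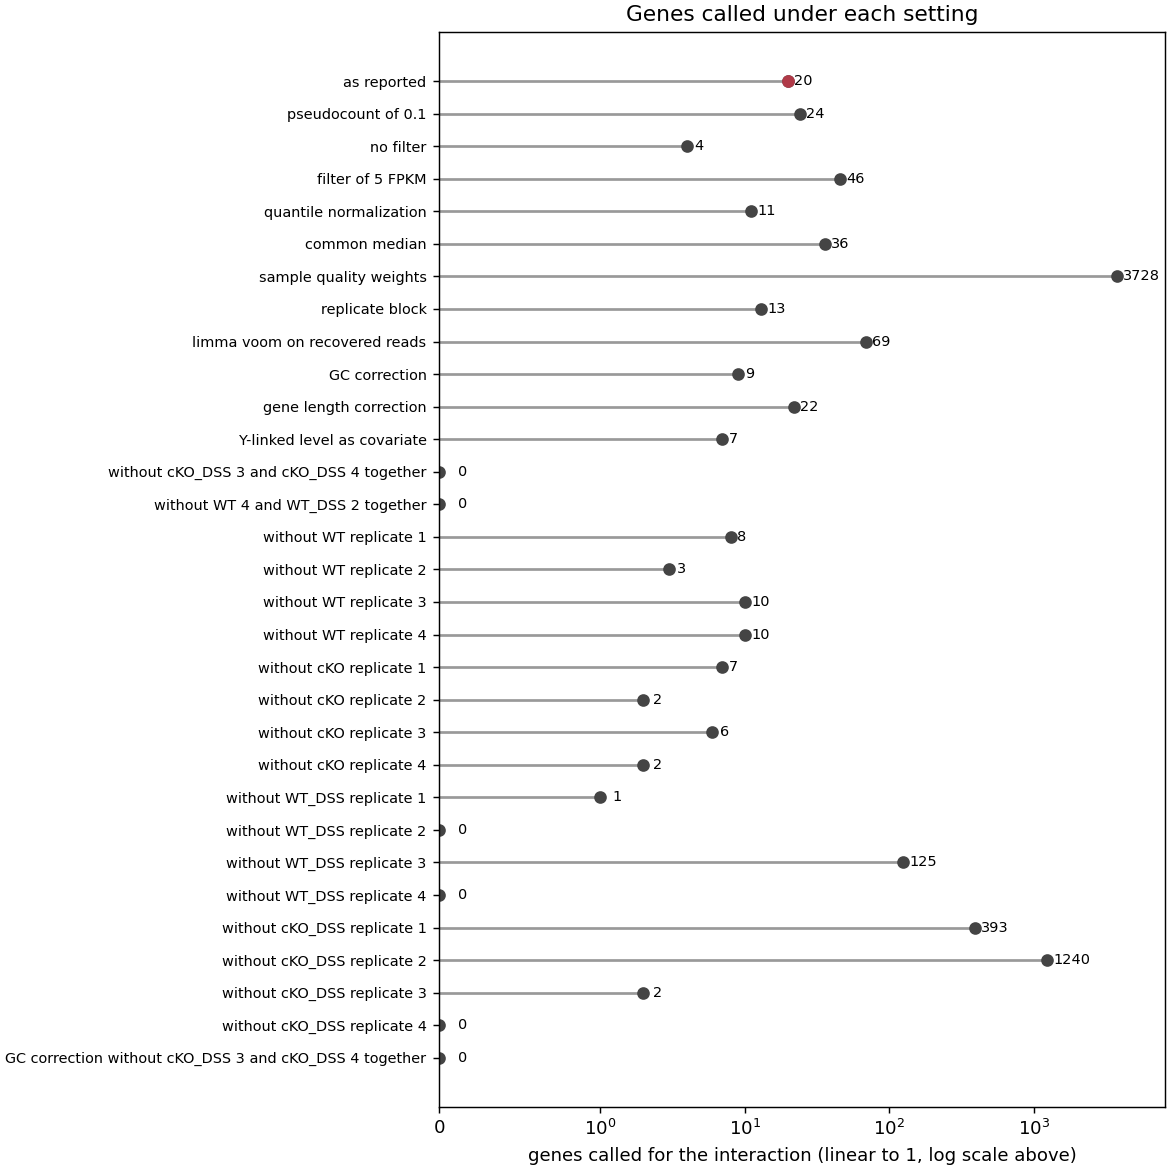
Number of genes called for the interaction (adjusted p under 0.05, limma) as reported (red) and under each alternative (grey), on an axis that is linear to 1 and logarithmic above. The counts run from 0 to 3728, against 20 as reported.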

How the data were processed

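RNA was sequenced from colonic epithelial cells in 16 libraries, 4 in each of 4 groups, grouped and numbered as the labels give it. Per the labels' protocols, the authors dropped reads of low quality or holding adapter or N bases. Per the submitters' processing notes, the build was mm10 and the tools included DESeq2 1.20.0 and featureCounts 1.5.0-p3. The sources used here do not give the aligner, the annotation release or the strand setting of the counting. The deposited values are FPKM in 1 column per library, with gene lengths, which gave back the whole reads behind each value and so the depth of 13911823 to 16414914 reads. Low genes are measured less precisely.

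The filter kept genes that reached 1 FPKM in 4 or more libraries, and log2(FPKM + 1), with a pseudocount of 1, was fitted with limma 3.58.1 in R 4.3.3 (a mean for each group, eBayes with a trend, 12 residual degrees of freedom). Two-sided moderated tests were adjusted by the Benjamini-Hochberg method over the 13255 genes of a comparison, and a gene was called below an adjusted p of 0.05, whatever its fold change. Fold changes on this scale understate those of low genes. GC content came from the longest transcript per gene in the GENCODE M21 reference, known for 97.1% of the kept genes, and was corrected per library by loess with a span of 0.5. Promoters came from RefSeq, GRCm38.p6.

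The genes named were the mTOR complexes, called protein-coding genes with the smallest p filling up to 10 in a direction, the called pseudogenes and antisense gene, and, per list, up to 4 members taken in order of p. The genes and the 53 lists were chosen with earlier results of these data known. The test was tried on simulated reads for the interaction on 13002 genes with a dispersion of 0.0149. The share recovered was 13.8% at a 1.5-fold change, 73.4% at 2-fold and 93.8% at 4-fold, and 9 of 126 calls were false. The simulated reads had the same dispersion for all genes and no GC trend or other effect of a library. These shares therefore do not give the recovery or the false calls in the real libraries. Alternatives were other pseudocounts, filters and scalings, sample quality weights, limma voom on recovered reads, a replicate block, corrections for GC content, gene length and Y-linked level, and leaving out libraries.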

Additional observations from a re-analysis of the deposited data

Results flagged for a closer look

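A sample lay far from the other 3 of its group in 3 of the 92 groups of 4 values examined, where chance gives about 1 in 20. Gm10036 was at 1.31 FPKM in cKO_DSS 3, against 2.28 to 2.40 in the others. Gm14038 was at 5.97 FPKM in WT 1, against 3.90 to 4.07. Gm15564 was at 1.35 FPKM in WT_DSS 3, against 2.46 to 2.54. All 3 are pseudogenes or antisense genes, whose reads may belong to other transcripts.

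The response to DSS differed between the genotypes by the interaction term itself in 20 genes. The positive values were 1.51 for Rps15-ps3, 1.29 for Vat1, 1.19 for Yif1b, 0.81 for Hk2, 0.72 for Slc17a9 and 0.63 for Ext1. The negative values were -4.03 for Gm10036, -2.18 for Polr2k, -1.89 for Gm15564, -1.81 for Hoxd13, -1.49 for Gm7099, -1.33 for Pcbd2, -1.28 for Gm14038 and -1.06 for Rdx. They were smaller in size for Clca3a2 at -0.94, Nucks1 at -0.81, Nusap1 at -0.76, Septin10 at -0.68, Tbl1xr1 at -0.67 and Rc3h2 at -0.65.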

How the results depend on the processing

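Against 20 genes called, limma called 24 with a pseudocount of 0.1 and 22 after a gene length correction, within 1.5 times. It called 4 with no filter, 46 with a filter of 5 FPKM, 11 after quantile normalization, 36 with a common median, 3728 with sample quality weights, 69 with voom, 9 after GC correction and 7 with the Y-linked level as a covariate. It called 0 without cKO_DSS 3 and 4 (1288 at an unadjusted p under 0.05), 0 without WT 4 and WT_DSS 2 (1993), and 0 with GC correction and without cKO_DSS 3 and 4 (1048), an alternative chosen after seeing the data. Leaving out 1 library gave 0 to 1240 calls: 8, 3, 10 and 10 without WT 1, 2, 3 or 4, 7, 2, 6 and 2 without cKO 1, 2, 3 or 4, 1, 0, 125 and 0 without WT_DSS 1, 2, 3 or 4, and 393, 1240, 2 and 0 without cKO_DSS 1, 2, 3 or 4. The cause of these moves was not tested. With a replicate block 13 genes were called, 8 of them among the 20, and correlations between same-numbered libraries ran from -0.199 to 0.3. These were not set against correlations of differently numbered libraries, so whether the numbers pair the libraries was not tested. The 20 genes kept their sign under every alternative that tested them, 16 of 16 with the filter of 5 FPKM. They were called in the same libraries that the alternatives reuse, so a kept sign was nearly fixed in advance. Prr5 turned from 0.55 to -0.046 with GC correction and without cKO_DSS 3 and 4. At this depth and with 4 libraries a group, genes changed 1.5-fold were mostly missed in simulated reads, so an uncalled gene is not shown to respond alike.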

Other observations

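Other programmes of the colon are given by their medians. The 22 genes of fatty acid oxidation and ketogenesis had a median interaction of 0.01, with 1 positive and 1 negative at an unadjusted p under 0.05, the 20 NRF2 antioxidant and glutathione genes -0.09, with 0 positive and 1 negative, and the 14 heat shock proteins 0.08, with 1 positive. Colonocyte transport genes had a median of -0.205, with 5 of 22 negative and 0 positive, but -0.14 with 3 negative after GC correction and -0.10 with 2 negative without cKO_DSS 3 and 4. Slc37a2, a sugar phosphate transporter, rose by 1.61 with DSS in WT (adjusted p = 0.000944, limma), had 0.56 in cKO, and was lower in cKO_DSS than in WT_DSS by -1.35 (adjusted p = 0.0123). Cyp2c68, a cytochrome P450 enzyme, rose by 0.86 in WT (adjusted p = 0.0118, limma), had -0.22 in cKO, and had an interaction of -1.08 ± 0.31 (SE; adjusted p = 0.0962). Sult1b1, a sulfotransferase, rose by 0.65 in WT (adjusted p = 0.00826, limma) and had -0.20 in cKO.

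Clock genes changed widely with DSS in both genotypes, 5 of 16 higher and 8 lower in WT and 4 higher and 8 lower in cKO (limma). Nr1d1, a repressor of the core clock that swings strongly over the day, was at 34.0, 34.8, 31.2 and 10.4 FPKM in WT, 36.8, 37.4, 30.0 and 23.7 in cKO, 12.5, 17.3, 16.5 and 10.4 in WT_DSS, and 3.44, 2.97, 6.31 and 8.88 in cKO_DSS. WT 4 lay with the WT_DSS libraries, and cKO_DSS lay below the other groups. Its interaction was -1.64 ± 0.50 (SE; adjusted p = 0.105, limma). The labels give no time of day for the libraries, and its part in these values was not tested. The list's median interaction was 0.09, and -0.13 after GC correction.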
